A study of Homo sapiens with 12 samples.

Results

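Aquaporins and LRRC8 proteins are the channels through which a cell moves water and, when it swells, anions and small organic osmolytes. Their mRNA was measured in the human breast cancer cell line MDA-MB-231, labelled triple negative and WT, after 24 h at pH 7.4, at pH 6.9 or at pH 6.4. The members were taken by gene symbol, 9 of the 60664 genes counted: the aquaporins AQP1, AQP3, AQP5 and AQP11 and the 5 LRRC8 genes, LRRC8A to LRRC8E. Cells grew in flasks at pH 7.4 before the medium was changed, and each medium had 4 libraries, called repeats 1 to 4. The labels name the intermediate medium pH 6.9, the protocol text pH 6.7, and the label is used here. Nothing says that repeats were separate cultures, so p-values measure only the spread between these samples. In bulk RNA from 1 cell line, fewer cells that express a gene and less RNA per cell cannot be told apart.

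Aquaporins are tetramers in which each subunit has its own pore. AQP1 and AQP5 pass water, AQP3 passes water and glycerol, and AQP11 lies mostly on membranes inside the cell. The LRRC8 proteins form the volume-regulated anion channel, VRAC, which opens when a cell swells and lets chloride and organic osmolytes out. LRRC8A is needed in every native channel, and the partner it is assembled with, LRRC8B to LRRC8E, sets which solutes pass.

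Libraries held 21060767 to 50643233 counts assigned to genes. Levels are given as CPM, the count of a gene scaled to library size after TMM factors, which corrects for differences in library composition. Repeat 1 at pH 7.4 stood apart on the first principal component, which held 40.6% of the variance, and detected 17841 genes. It listed at 0 a total of 104 genes that had 20 or more counts in each of the other libraries, and no other library had such a gene. Repeat 2 at pH 6.9 detected 21628 genes and the remaining libraries 23113 to 27384. On the second principal component, with 25% of the variance, repeat 3 at pH 6.4 lay at -2.63. Repeats 1, 2 and 4 of that medium lay at 39.5, 67.0 and 50.9. Of the 6 basal and mesenchymal markers, VIM, CD44, EGFR, MSN and AXL rose at pH 6.4 against pH 7.4 and CAV1 fell, with summed levels of 6864 to 8140 CPM at pH 6.4 against 5925 to 6265 CPM at pH 7.4. The 7 luminal and hormone receptor markers summed to 93.0 to 114 CPM at pH 6.4 and 119 to 134 CPM at pH 7.4. Of these, ESR1, PGR and FOXA1 reached at most 14, 1 and 2 counts, and ERBB2, the gene of HER2, averaged 74.4 CPM at pH 6.4 and 87.6 CPM at pH 7.4. EPCAM averaged 17.5 CPM at pH 6.4 and 22 CPM at pH 7.4, GATA3 averaged 10.6 CPM at pH 6.4 and 15.5 CPM at pH 7.4, and CDH1 alone of the list was called, lower at pH 6.4 (log2 difference -1.76, edgeR adjusted p = 0.00776). Leukocyte markers summed to 1.58 to 2.88 CPM at pH 6.4 and 3.72 to 6.62 CPM at pH 7.4, with CD3E at 0 in all 12 libraries. Most of that sum was CD14, which averaged 2.08 CPM at pH 6.4 and 4.36 CPM at pH 7.4. CD14 was called lower at pH 6.4 (log2 difference -1.07, edgeR adjusted p = 0.0102). Endothelial markers summed to 6.80 to 9.63 CPM at pH 6.4 and 5.95 to 13.2 CPM at pH 7.4, with CLDN5 at 0 throughout. PECAM1 made up most of this sum, at a mean of 7.88 CPM at pH 6.4 and 7.83 CPM at pH 7.4. Adipocyte and muscle markers stayed at or under 0.756 CPM in every library. The part of these marker differences in the results below was not tested.

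At pH 6.4 the aquaporin mRNAs AQP1, AQP3 and AQP5 were lower than at pH 7.4 and the VRAC subunit LRRC8C was higher, while AQP11, LRRC8A, LRRC8B, LRRC8D and LRRC8E did not pass the test. AQP5 differed most, 7.17-fold lower at pH 6.4, followed by AQP3 at 2.55-fold lower and AQP1 at 1.76-fold lower. LRRC8C was 1.58-fold higher. All 9 members passed the filter on low counts. The test was edgeR's quasi-likelihood test over 17544 genes, with p-values adjusted by Benjamini-Hochberg, and called means an adjusted p below 0.05. Of the 9 members 4 were called, against 30.3% of all tested genes in this comparison, so calls were common at this acidity. By direction, 3 of 4 aquaporins fell, where 14.7% of all genes fell, and 1 of 5 LRRC8 genes rose, where 15.6% of all genes rose. The median log2 difference, pH 6.4 minus pH 7.4, was -1.09 over the 4 aquaporins and 0.23 over the 5 LRRC8 genes, beside -0.00083 over all tested genes. Without repeat 1 at pH 7.4, the library that stood apart, the 4 calls held, with log2 differences of -2.72 for AQP5, -1.27 for AQP3, -0.71 for AQP1 and 0.57 for LRRC8C.

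**Figure D1:**
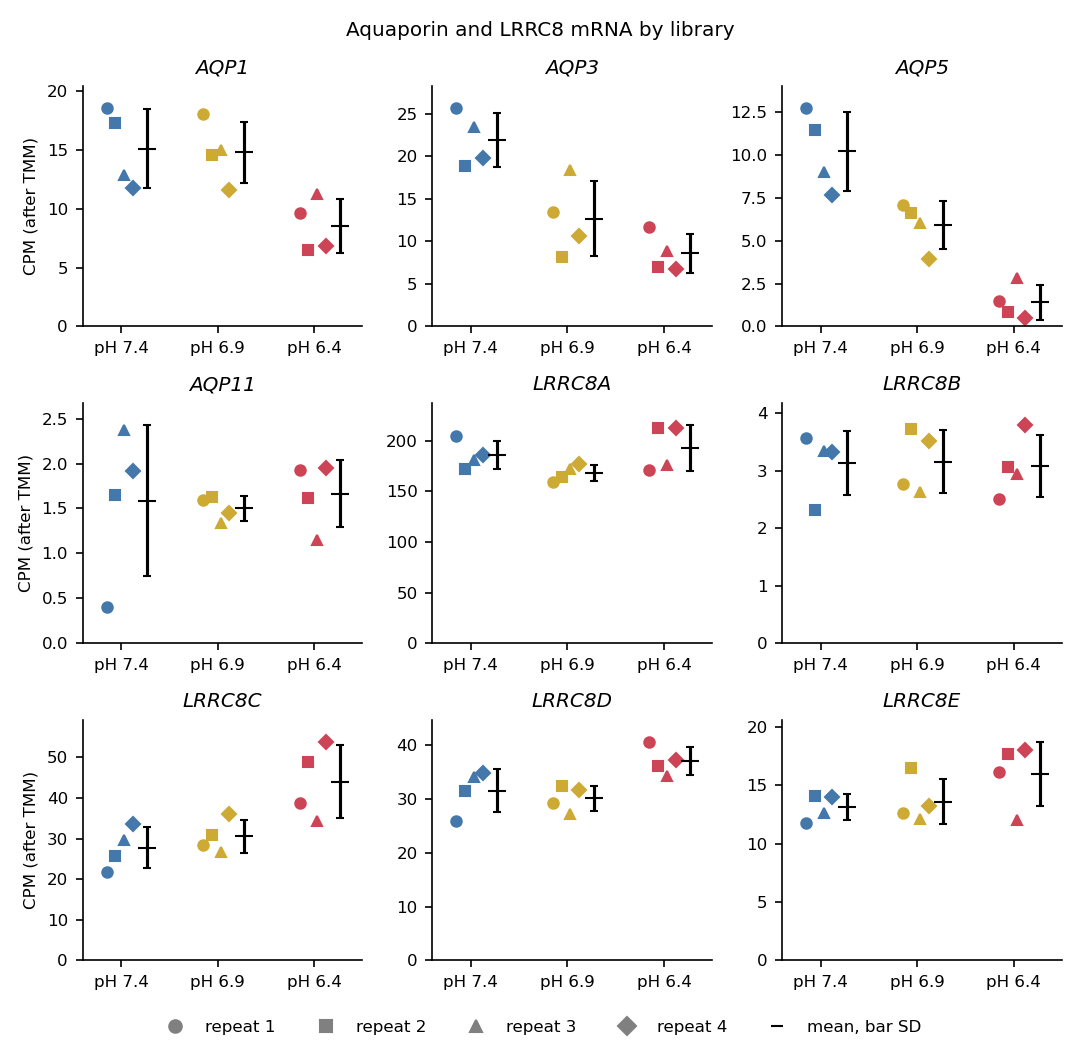
Level of each gene in CPM after TMM scaling in the 12 libraries, by medium in rising acidity, with 1 marker shape per repeat and the mean and SD of each medium in black. AQP1, AQP3 and AQP5 lie lower at pH 6.4 than in any library at pH 7.4, LRRC8C lies higher, and the other genes overlap between these media.

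AQP5 (ENSG00000161798) is the water channel of secretory gland and lung epithelium. It lies on the plus strand at chr12:49961870-49965681 (GRCh38, GENCODE release 29). In repeats 1 to 4 it had 12.7, 11.4, 9.03 and 7.65 CPM at pH 7.4, then 7.11, 6.59, 6.02 and 3.92 CPM at pH 6.9 and 1.49, 0.841, 2.80 and 0.480 CPM at pH 6.4. Every library at pH 6.4 was lower than every library at pH 6.9, and each of those was lower than every library at pH 7.4. The counts behind these levels were 14 to 119 at pH 6.4, 149 to 357 at pH 6.9 and 194 to 553 at pH 7.4. AQP5 averaged 1.40 ± 1.02 CPM at pH 6.4 and 10.2 ± 2.30 CPM at pH 7.4 (SD, n = 4 each), a log2 difference of -2.84 (SE 0.392, 95% interval -3.68 to -2.0, edgeR adjusted p = 0.000174). Of all 17544 tested genes, 30 had a more negative difference. Against pH 6.9, which averaged 5.91 ± 1.40 CPM, the log2 difference of pH 6.4 was -2.05 (SE 0.386, adjusted p = 0.00506), and 25 genes were more negative. Within repeats 3 and 4 alone the pH 6.4 minus pH 7.4 value was -2.26 with an adjusted p of 0.0571, while within repeats 1 and 2 it was -3.37 with an adjusted p of 0.000268.

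AQP3 (ENSG00000165272), the glycerol and water channel of skin and other epithelia, lies on the minus strand at chr9:33441154-33447633. Its levels in repeats 1 to 4 were 25.7, 18.9, 23.4 and 19.8 CPM at pH 7.4, 13.4, 8.15, 18.4 and 10.6 CPM at pH 6.9, and 11.6, 6.99, 8.90 and 6.78 CPM at pH 6.4. Both acid media lay wholly under pH 7.4, although repeat 3 at pH 6.9 came within 1 CPM of the lowest library at pH 7.4, and the acid media overlapped each other. AQP3 averaged 8.58 ± 2.25 CPM at pH 6.4 and 21.9 ± 3.17 CPM at pH 7.4 (SD, n = 4 each), a log2 difference of -1.35 (SE 0.231, 95% interval -1.85 to -0.86, edgeR adjusted p = 0.000732). It was called in this comparison within repeats 1 and 2 (-1.25, adjusted p = 0.0154) and within repeats 3 and 4 (-1.44, adjusted p = 0.0269). Between pH 6.4 and pH 6.9 the log2 difference was -0.55 (adjusted p = 0.113). In the fit blocked on repeat number it was -0.53 and passed (adjusted p = 0.0168).

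AQP1 (ENSG00000240583), the water channel of red blood cells, kidney tubules and capillary endothelium, lies on the plus strand at chr7:30911694-30925516. It had 18.6, 17.3, 12.8 and 11.8 CPM in repeats 1 to 4 at pH 7.4, 18, 14.5, 15.0 and 11.6 CPM at pH 6.9, and 9.68, 6.47, 11.3 and 6.85 CPM at pH 6.4. All 4 libraries at pH 6.4 were under all libraries of both other media, by a small margin for repeat 3, and pH 6.9 covered the same range as pH 7.4. The mean was 8.57 ± 2.30 CPM at pH 6.4 and 15.1 ± 3.33 CPM at pH 7.4 (SD, n = 4 each). That is a log2 difference of -0.82 (SE 0.205, 95% interval -1.26 to -0.38, edgeR adjusted p = 0.00806), and -0.79 for pH 6.4 minus pH 6.9 (adjusted p = 0.0193). The call against pH 6.9 was lost without repeat 1 at pH 6.9, without repeat 2 at pH 6.4 or without repeat 4 at pH 6.4, where the adjusted p reached 0.0719. Within repeats 1 and 2 the pH 6.4 minus pH 7.4 value was -1.15 (adjusted p = 0.00644), and within repeats 3 and 4 it was -0.42 and did not pass (adjusted p = 0.284). The summed endothelial markers, of a cell type that carries AQP1, overlapped between pH 6.4 and pH 7.4, and PECAM1 made up most of each sum. The samples are 1 cell line, and any link of these markers to the AQP1 difference was not tested.

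AQP11 (ENSG00000178301, plus strand, chr11:77589391-77610355) was, with LRRC8B, among the 2 lowest of the 9 genes per kilobase of exon in each medium. It had 0.406, 1.65, 2.37 and 1.92 CPM in repeats 1 to 4 at pH 7.4, 1.59, 1.63, 1.33 and 1.45 CPM at pH 6.9, and 1.93, 1.62, 1.15 and 1.95 CPM at pH 6.4. Repeat 1 at pH 7.4, the library that stood apart, held 14 counts and was the lowest, and the media overlapped. The log2 difference of pH 6.4 minus pH 7.4 was 0.07 with a 95% interval of -0.76 to 0.91 (edgeR adjusted p = 0.914), and it was -0.24 without that library.

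The RefSeq start sites of the 4 called genes are shown with the 250 bases upstream of each, 5′ to 3′ on the gene's strand, because these genes moved with acidity. The sequences are from RefSeq, GRCh38.p14, and 8 of the 9 members matched the table of start sites, with AQP11 not among them. Both strands were searched for the E-box CACGTG and for ACGTG, the core of the hypoxia element, which every E-box of these letters contains. The cyclic AMP element TGACGTCA and the GC box GGGCGG were searched as well. So were TGGAAA, the core of the tonicity element bound by NFAT5, and the TATA element TATAAA. Capitals mark matches to any of these.
AQP5, chr12:49961622-49961871, plus strand: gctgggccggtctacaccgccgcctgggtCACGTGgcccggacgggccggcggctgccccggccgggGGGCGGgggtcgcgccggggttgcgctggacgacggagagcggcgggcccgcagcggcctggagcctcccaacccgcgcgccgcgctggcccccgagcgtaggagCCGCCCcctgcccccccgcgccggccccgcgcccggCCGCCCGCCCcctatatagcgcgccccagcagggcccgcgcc
AQP3, chr9:33447594-33447843, minus strand: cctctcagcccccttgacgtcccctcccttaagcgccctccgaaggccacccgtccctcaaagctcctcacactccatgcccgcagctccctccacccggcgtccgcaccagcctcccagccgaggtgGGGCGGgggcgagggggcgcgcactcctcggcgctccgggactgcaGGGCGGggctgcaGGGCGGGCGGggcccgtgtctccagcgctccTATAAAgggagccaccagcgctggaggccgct
AQP1, chr7:30911603-30911852, plus strand: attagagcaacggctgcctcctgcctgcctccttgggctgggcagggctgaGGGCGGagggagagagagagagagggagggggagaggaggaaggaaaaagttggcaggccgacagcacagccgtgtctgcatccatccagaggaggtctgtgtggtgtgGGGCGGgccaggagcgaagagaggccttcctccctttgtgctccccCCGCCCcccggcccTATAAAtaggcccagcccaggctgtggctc
LRRC8C, chr1:89632870-89633119, plus strand: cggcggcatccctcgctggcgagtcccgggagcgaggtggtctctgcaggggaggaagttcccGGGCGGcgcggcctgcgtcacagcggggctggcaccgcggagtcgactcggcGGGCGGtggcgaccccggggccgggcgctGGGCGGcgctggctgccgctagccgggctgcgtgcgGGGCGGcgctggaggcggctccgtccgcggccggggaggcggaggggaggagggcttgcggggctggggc

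The windows differ in composition. G and C made up 84.4% of the AQP5 window, 73.6% of the AQP3 window, 65.2% of the AQP1 window and 80.8% of the LRRC8C window, beside a median of 58.0% over 35116 windows of the same length. AQP3 and AQP1 each hold TATAAA, at -32 and -30 counted from the start, a motif in 10.7% of all windows. AQP5 and LRRC8C do not hold these exact letters. The AQP5 window has the letters tatata after its last GC box, which the search did not cover. AQP5 holds the palindrome CACGTG at -221, which 6.34% of windows have and which gives the match to ACGTG, present in 18.5%. GGGCGG, found in 42.6% of windows, occurs in 3 copies at AQP1 and 4 copies at each of the other 3 genes, overlapping matches counted separately. TGGAAA (18% of windows) was in none of the member windows, and TGACGTCA (1.65%) was only in that of LRRC8A. A match or its lack is a description of these letters in this window.

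LRRC8C (ENSG00000171488) encodes a partner subunit of VRAC and lies on the plus strand at chr1:89633072-89769903, between LRRC8B and LRRC8D. It had 21.8, 25.8, 29.7 and 33.6 CPM in repeats 1 to 4 at pH 7.4, 28.5, 30.8, 26.8 and 36.2 CPM at pH 6.9, and 38.9, 48.9, 34.3 and 53.8 CPM at pH 6.4. Each library at pH 6.4 was above each library at pH 7.4, with repeat 3 at pH 6.4 just above repeat 4 at pH 7.4, and pH 6.9 overlapped both other media. LRRC8C averaged 44.0 ± 8.99 CPM at pH 6.4 and 27.8 ± 5.10 CPM at pH 7.4 (SD, n = 4 each), a log2 difference of 0.66 (SE 0.159, 95% interval 0.32 to 1.00, edgeR adjusted p = 0.00623). Against pH 6.9, at 30.6 ± 4.06 CPM, the value was 0.52 (SE 0.158, adjusted p = 0.0365). The first of these was called within repeats 1 and 2 (0.89, adjusted p = 0.00458), but within repeats 3 and 4 it was 0.48 and did not pass (adjusted p = 0.213). The second did not pass with scaling by library size alone (0.43, adjusted p = 0.0594). It was also lost with several single libraries left out, where the edgeR adjusted p reached 0.139.

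LRRC8A (ENSG00000136802), the obligatory subunit, lies on the plus strand at chr9:128882112-128918039 and had the highest level of the 9 genes per kilobase of exon in every medium. It had 205, 172, 181 and 186 CPM in repeats 1 to 4 at pH 7.4, 159, 164, 172 and 176 CPM at pH 6.9, and 171, 212, 176 and 213 CPM at pH 6.4. Repeats 2 and 4 at pH 6.4 were the highest and the media overlapped. The mean was 193 ± 22.5 CPM at pH 6.4 and 186 ± 13.7 CPM at pH 7.4, with a log2 difference of 0.05 and a 95% interval of -0.13 to 0.24 (edgeR adjusted p = 0.691). The sign of that difference turned with scaling by library size alone, to -0.03, a setting that moved the median of all genes to -0.08. The difference of pH 6.4 minus pH 6.9 was 0.20 (adjusted p = 0.136).

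LRRC8D (ENSG00000171492, plus strand, chr1:89821014-89936611) is the partner known for letting taurine and platinum drugs through the channel. It had 25.9, 31.5, 34.0 and 34.9 CPM in repeats 1 to 4 at pH 7.4, 29.2, 32.4, 27.2 and 31.6 CPM at pH 6.9, and 40.6, 36.1, 34.3 and 37.3 CPM at pH 6.4. All libraries at pH 6.4 were above all at pH 6.9, while repeat 3 at pH 6.4 was under repeat 4 at pH 7.4. LRRC8D averaged 37.1 ± 2.66 CPM at pH 6.4 and 30.1 ± 2.36 CPM at pH 6.9 (SD, n = 4 each), a log2 difference of 0.30 (SE 0.106, 95% interval 0.07 to 0.52) that did not pass (edgeR adjusted p = 0.0652). In the fit blocked on repeat number the value was 0.30 and passed (adjusted p = 0.0372). The pH 6.4 minus pH 7.4 difference was 0.23 (adjusted p = 0.111).

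LRRC8E (ENSG00000171017, plus strand, chr19:7888505-7902021) and LRRC8B (ENSG00000197147, plus strand, chr1:89524836-89597864) are the remaining partner subunits. LRRC8E had 11.8, 14.1, 12.7 and 14.0 CPM in repeats 1 to 4 at pH 7.4, 12.6, 16.5, 12.2 and 13.2 CPM at pH 6.9, and 16.2, 17.7, 12 and 18.1 CPM at pH 6.4. At pH 6.4 repeats 1, 2 and 4 were above every library at pH 7.4 and repeat 3 was near the lowest. Its log2 difference of pH 6.4 minus pH 7.4 was 0.28 (95% interval -0.03 to 0.59, edgeR adjusted p = 0.166), and without repeat 3 at pH 6.4 it was 0.40 and passed (adjusted p = 0.0276). In that setting 6411 genes were called in all, against 5321 in the main fit. LRRC8B, the lowest of the LRRC8 genes per kilobase of exon, ranged over 2.32 to 3.57 CPM at pH 7.4, 2.63 to 3.73 CPM at pH 6.9 and 2.51 to 3.8 CPM at pH 6.4, so the media overlapped almost wholly. Its log2 difference of pH 6.4 minus pH 7.4 was -0.03 with a 95% interval of -0.48 to 0.43 (adjusted p = 0.942).

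The intermediate medium against the neutral one showed no called member in the main fit. None of the 9 passed that edgeR fit at pH 6.9 against pH 7.4, where 0.724% of all genes were called (0.313% higher, 0.41% lower). An unadjusted p under 0.05 was found for 2, AQP3 and AQP5. These were also the 2 members whose libraries did not overlap between the media, both lower at pH 6.9, as held for 10.1% of all genes (5.18% higher, 4.91% lower). AQP3 averaged 12.7 ± 4.41 CPM at pH 6.9 and 21.9 ± 3.17 CPM at pH 7.4, a log2 difference of -0.80 (SE 0.228, adjusted p = 0.134), and it passed with DESeq2 (-0.80, adjusted p = 0.0196). It also passed in the edgeR fit blocked on repeat number. Between these media repeat 1 at pH 6.9 was closer to another number (r 0.247) than to its own (r 0.0798). AQP5 averaged 5.91 ± 1.40 CPM at pH 6.9 and 10.2 ± 2.30 CPM at pH 7.4, a log2 difference of -0.79 (SE 0.358, adjusted p = 0.398). For AQP1 the difference was -0.03, with a 95% interval of -0.46 to 0.40. The 5 LRRC8 genes differed by -0.15 to 0.14.

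Between the acid media, pH 6.4 against pH 6.9, 3 of the 9 members were called, AQP1 and AQP5 lower and LRRC8C higher, where 17% of all genes were called (8.83% higher, 8.2% lower). With 1 library left out the count ranged over 1 to 4, and it was 1 without repeat 1 at pH 6.9, without repeat 2 at pH 6.4 or without repeat 4 at pH 6.4. AQP1, AQP5 and LRRC8D had libraries that did not overlap, against 20.4% of all genes (9.64% higher, 10.8% lower). Over pH 6.4 against pH 7.4, 4 members had libraries that did not overlap, against 27.9% of all genes (14.4% higher, 13.5% lower).

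**Figure D2:**
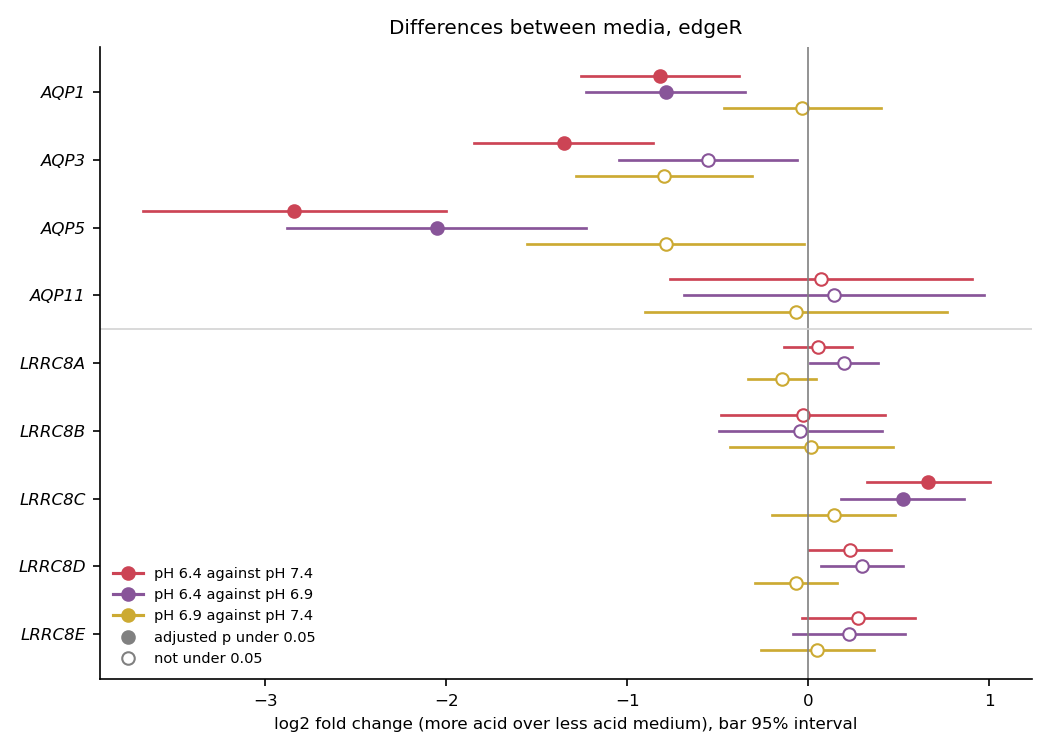
Log2 fold change of each gene in the 3 comparisons, more acid over less acid medium, with 95% intervals from edgeR, and filled points for an adjusted p under 0.05. AQP5 reaches -2.84 at pH 6.4 against pH 7.4, and the LRRC8 points lie between -0.15 and 0.66.

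Whether pH 6.9 lay midway between the extremes on the log2 scale was tested for each gene. By edgeR no member and no gene of the 17544 departed from the midpoint at an adjusted p under 0.05 (0% called), and AQP1 and LRRC8A had an unadjusted p under 0.05. AQP1 at pH 6.9 was above the midpoint by 0.38 (95% interval 0.01 to 0.75, adjusted p = 0.425), AQP5 was above it by 0.63 (-0.03 to 1.29, adjusted p = 0.454) and AQP3 lay at -0.12 (-0.55 to 0.30, adjusted p = 0.864). DESeq2 also called no member, and it called 102 genes in all. Without repeat 3 at pH 6.4, AQP5 passed by edgeR, at 0.92 above the midpoint (adjusted p = 0.0375). In that setting 1109 genes were called in all, against 0 in the main fit.

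The comparisons above share libraries, since each medium enters more than 1 of them. In the pH 6.4 group, repeat 3 had the highest AQP1 and AQP5 levels and the lowest LRRC8C, LRRC8D, LRRC8E and AQP11 levels. For the 4 called genes that library was the closest to pH 7.4 in AQP1, AQP5 and LRRC8C, and for AQP3 that was repeat 1. Over all genes, too, repeat 3 lay apart from the others at pH 6.4 on the second principal component. Without it, 6411 genes were called at pH 6.4 against pH 7.4, against 5321 in the main fit.

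Ratios of genes within a library do not depend on scaling between libraries. For every 100 AQP1 reads, AQP5 had 68.6, 66.1, 70.3 and 65.1 reads in repeats 1 to 4 at pH 7.4, 39.4, 45.3, 40.2 and 33.7 reads at pH 6.9, and 15.4, 13, 24.9 and 7.0 reads at pH 6.4. The 3 media did not overlap, and the 4 libraries at pH 7.4 lay within a narrow range although AQP1 and AQP5 each varied more among them. For every 100 AQP1 reads, AQP3 had 109 to 182 reads at pH 7.4, 56.1 to 123 at pH 6.9 and 79.1 to 120 at pH 6.4, so these media overlapped. The ratios among aquaporins are a description.

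For the channel's make-up, the reads of each partner were set against those of LRRC8A. LRRC8C had 10.7, 15.0, 16.5 and 18.1% of the LRRC8A reads in repeats 1 to 4 at pH 7.4, 17.9, 18.7, 15.6 and 20.5% at pH 6.9, and 22.7, 23.1, 19.5 and 25.3% at pH 6.4. Every library at pH 6.4 was above every library at pH 7.4, and repeat 4 at pH 6.9 was above repeat 3 at pH 6.4. The log2 ratio differed by 0.61 between pH 6.4 and pH 7.4, with a two-sided exact permutation p of 0.0286, the smallest that 4 against 4 libraries can give, and 0.343 after Benjamini-Hochberg adjustment over 12 such tests. None of the 12 passed, 1 had an unadjusted p under 0.05, and a lone ratio could not have passed at this size. For LRRC8D the pH 6.4 minus pH 7.4 log2 ratio was 0.19 (exact p = 0.486), for LRRC8E 0.22 (exact p = 0.2) and for LRRC8B -0.07 (exact p = 0.657). A share of reads is not a share of protein subunits.

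**Figure D3:**
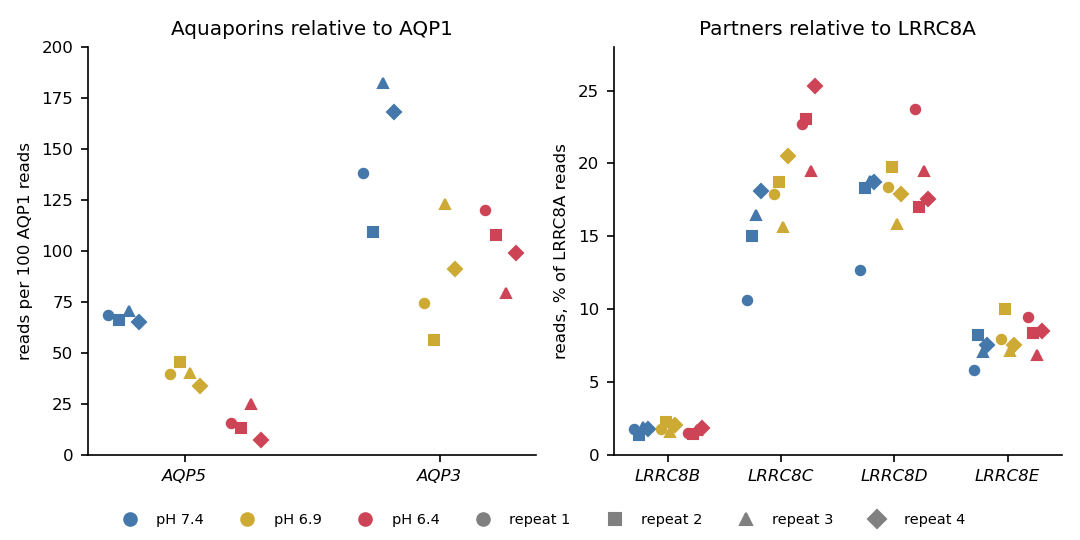
Left, AQP5 and AQP3 reads per 100 AQP1 reads in each library, and right, reads of each LRRC8 partner as a percentage of LRRC8A reads, by medium (colour) and repeat (shape). AQP5 falls into 3 ranges that do not overlap, and LRRC8C ranges over 19.5 to 25.3% at pH 6.4 against 10.7 to 18.1% at pH 7.4.

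Levels of different genes were compared as CPM per kilobase of annotated exon. The length was that of all annotated exons of a gene together, from 1885 bases for AQP5 to 11724 bases for LRRC8C. Which transcripts the cells made was not taken into account, so the order of genes and the LRRC8A share depend on these lengths. At pH 7.4 the order was LRRC8A at 35.5 ± 2.63, AQP3 at 7.44 ± 1.08, LRRC8D at 6.50 ± 0.831, AQP5 at 5.42 ± 1.22, AQP1 at 4.40 ± 0.968, LRRC8E at 3.04 ± 0.258, LRRC8C at 2.37 ± 0.435, AQP11 at 0.663 ± 0.351 and LRRC8B at 0.382 ± 0.0683 CPM per kilobase (SD, n = 4). LRRC8A stood clear of AQP3, AQP1 of LRRC8E and LRRC8C of AQP11. The ranges of AQP3, LRRC8D, AQP5 and AQP1 overlapped from one to the next, as did those of LRRC8E and LRRC8C, and of AQP11 and LRRC8B. At pH 6.9 the order was LRRC8A, LRRC8D, AQP1, AQP3, LRRC8E, AQP5, LRRC8C, AQP11 and LRRC8B. There LRRC8D at 6.21 CPM per kilobase was clear of AQP1 at 4.31 but not of AQP3, which reached 6.25 in 1 library. The genes from AQP1 to LRRC8C, which averaged 2.61, overlapped with their neighbours in the order. At pH 6.4 LRRC8A at 36.9 and LRRC8D at 7.64 CPM per kilobase led, followed by LRRC8C at 3.75, LRRC8E at 3.69, AQP3 at 2.91, AQP1 at 2.49, AQP5 at 0.744, AQP11 at 0.694 and LRRC8B at 0.375. In that medium LRRC8C, LRRC8E, AQP3 and AQP1 overlapped with their neighbours, AQP5 lay wholly under AQP1, and AQP5 overlapped AQP11. In both acid media LRRC8B lay wholly under AQP11. LRRC8A made up 74.2 ± 3.22% (SD, n = 4) of the summed LRRC8 level per kilobase at pH 7.4, with 72.3 ± 2.05% at pH 6.9 and 70.4 ± 1.99% at pH 6.4. At pH 7.4 repeat 1, the library that stood apart, held 79.1%, and repeats 2 to 4 held 72.9, 72.9 and 72.2%. The share ranged over 69.8 to 74.9% at pH 6.9 and 67.6 to 71.9% at pH 6.4. Whether it differed between media was not tested.

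**Figure D4:**
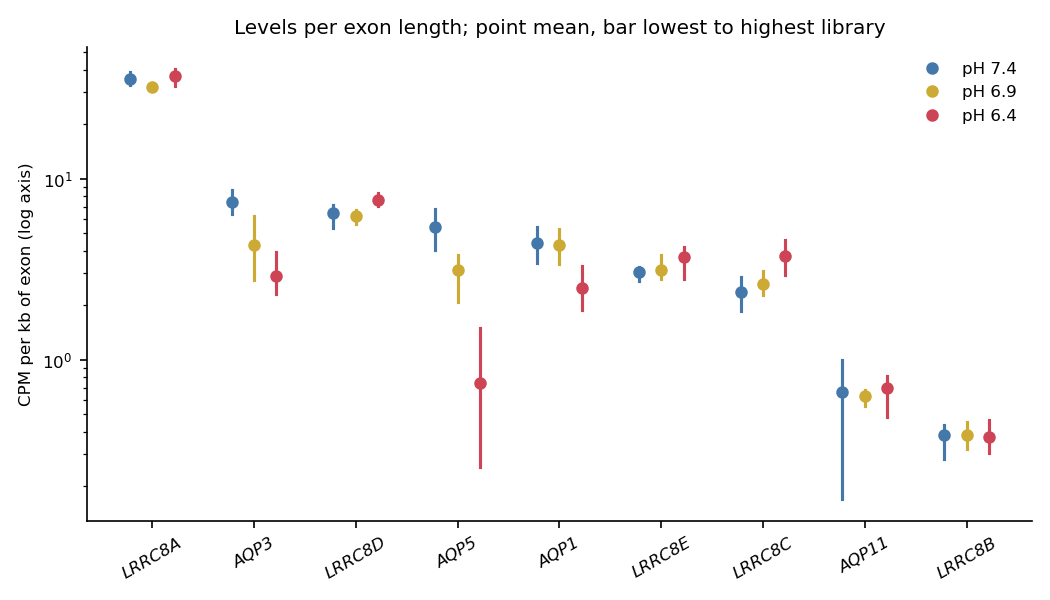
Mean level of each gene per kilobase of exon in the 3 media on a log axis, with bars from the lowest to the highest library, ordered by the level at pH 7.4. AQP5 averages 5.42 CPM per kilobase at pH 7.4, 3.14 at pH 6.9 and 0.744 at pH 6.4, while LRRC8A stays between 32.1 and 36.9.

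The genome places some of these genes side by side. LRRC8B, LRRC8C and LRRC8D follow each other on the plus strand of chromosome 1, with 35207 bases between LRRC8B and LRRC8C and 51110 bases between LRRC8C and LRRC8D. Of these 3 neighbours only LRRC8C passed at pH 6.4 against pH 7.4, and whether they differ from each other was not tested. AQP5 is followed 1512 bases downstream by AQP6, on the same strand of chromosome 12. AQP6, an aquaporin best known from intracellular vesicles of the kidney, had 39, 55, 21 and 41 counts in repeats 1 to 4 at pH 7.4, 38, 51, 27 and 9 counts at pH 6.9, and 11, 6, 16 and 2 counts at pH 6.4. It was lower in each library at pH 6.4 than in any at pH 7.4, at 0.211 ± 0.139 CPM against 1.04 ± 0.112 CPM, with a log2 difference of -2.26 (SE 0.535, edgeR adjusted p = 0.00581). At pH 6.4 AQP6 and AQP5 were both highest in repeat 3. AQP6 shares 137 exon bases with RACGAP1 on the other strand, and whether counting used strand is not stated in the labels.

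Several members share exon bases with other genes too. AQP1 shares 910 exon bases, LRRC8C 325 and LRRC8D 329 with further annotated genes on the same strand, and those genes were at 0 in all 12 libraries. Strand use cannot separate such reads, and how reads in shared bases were counted is not given. The limit on strand use holds for LRRC8E and LRRC8B. LRRC8E shares 3218 exon bases with an antisense gene that had at most 25 counts, and LRRC8B shares 246 with an antisense gene, LRRC8C-DT. AQP5 has the antisense gene AQP5-AS1, with no shared exon base.

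Of the other 10 aquaporin genes, AQP6 alone had enough counts to be tested. MIP, AQP4, AQP8, AQP9, AQP10, AQP12A and AQP12B were at 0 in all 12 libraries, AQP2 had at most 1 count and AQP7 at most 6.

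Among 14 further anion channel genes, 10 were tested, and 2 rose and 2 fell at pH 6.4 against pH 7.4, with a median log2 difference of 0.17. In this comparison 30.3% of all tested genes were called, 15.6% higher and 14.7% lower, and the counts for the lists here are to be read against those shares. PACC1, the acid-activated chloride channel, averaged 31.3 ± 8.43 CPM at pH 6.4 and 16.9 ± 0.973 CPM at pH 7.4 (log2 difference 0.88, edgeR adjusted p = 0.00182). ANO6, a scramblase and ion channel, differed by 0.34 (adjusted p = 0.0028). The chloride-proton exchanger CLCN4 (-0.37, adjusted p = 0.0202) and ANO10 (-0.43, adjusted p = 0.0237) fell. Of 6 pannexin and connexin genes, which form large-pore channels, 4 were tested and 2 rose, with a median of 0.87 (15.6% of all genes rose). The connexin GJB2 averaged 21.6 ± 1.75 CPM at pH 6.4 and 8.94 ± 0.445 CPM at pH 7.4 (1.28, adjusted p = 3.58e-06), and the pannexin PANX2 averaged 10.5 ± 5.29 CPM at pH 6.4 and 2.77 ± 1.15 CPM at pH 7.4 (1.93, adjusted p = 0.00123). GJB2 was also called at pH 6.9 against pH 7.4 (0.79, adjusted p = 0.00224).

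Of 10 cation channels linked to swelling or stretch, 7 were tested and 2 called (30.3% of all genes were called), with a median of 0.02. KCNN4, a calcium-activated potassium channel, rose (0.36, adjusted p = 0.0226) while KCNK2, a stretch-sensitive potassium channel, fell (-1.28, adjusted p = 0.0109). All 14 genes of volume-regulating transport and its control were tested, and 5 rose and 4 fell, with a median of 0.14, beside 15.6% and 14.7% of all genes. The 4 with the smallest p included both directions. AKR1B1, the enzyme that makes the osmolyte sorbitol, differed by -2.55 (edgeR adjusted p = 8.99e-07), and SLC5A3, which takes up the osmolyte inositol, by -1.45 (adjusted p = 9.84e-05). SLC6A6, the taurine transporter, averaged 276 CPM at pH 6.4 and 148 CPM at pH 7.4 (0.89, adjusted p = 8.46e-05), and the kinase WNK4 differed by 3.63 (adjusted p = 8.14e-05). WNK4 overlaps COA3 on the other strand and SLC5A3 shares exon bases with MRPS6.

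**Figure D5:**
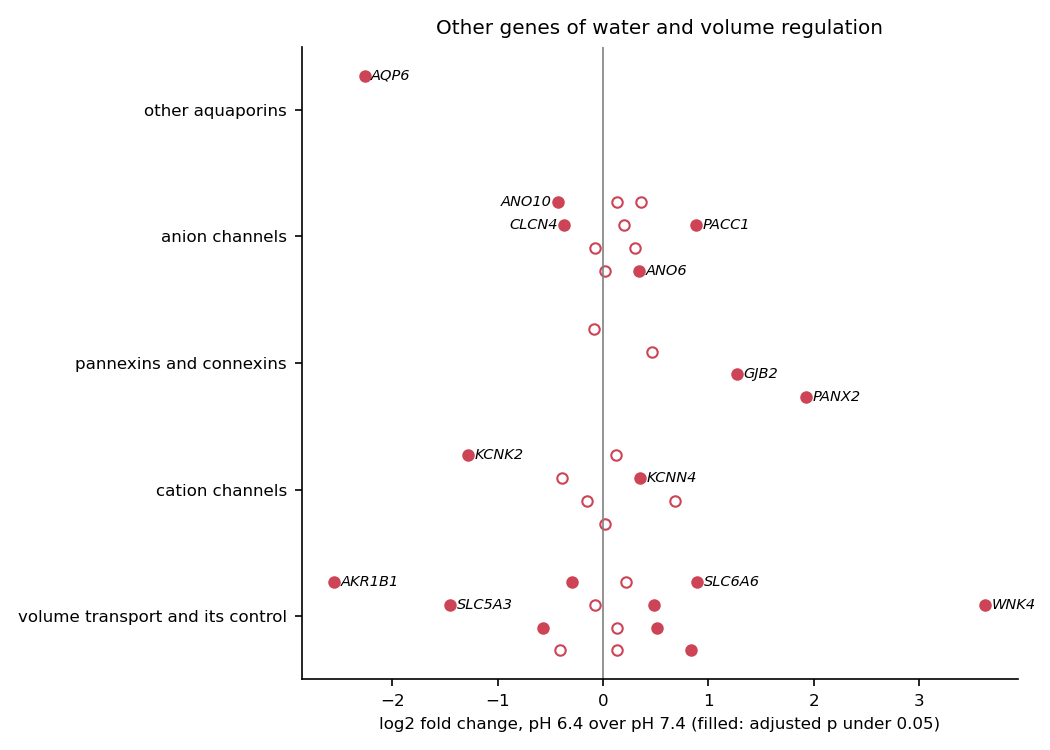
Log2 fold change, pH 6.4 over pH 7.4, of the tested genes in 5 lists of water and volume regulation, 1 point per gene, filled for an adjusted p under 0.05. Called genes lie on both sides of 0 in the anion channel, cation channel and volume transport lists, and the called pannexin and connexin genes PANX2 and GJB2 lie to the right.

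At pH 6.9 against pH 7.4, these lists held no called anion or cation channel, GJB2 as the called gene among the pannexins and connexins, and 2 genes that fell among those of volume transport, where 0.724% of all genes were called. Between pH 6.4 and pH 6.9, 2 anion channels and 2 pannexin or connexin genes rose, 5 volume transport genes rose and 3 fell, and AQP6 fell (-1.78, adjusted p = 0.0351), where 17% of all genes were called, 8.83% higher and 8.2% lower.

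The genes whose log2 CPM followed a member most closely over the 12 libraries were sought among 12973 expressed genes for the 2 aquaporins and the 2 LRRC8 genes with the smallest p over the media. For AQP5 they were ADSS2, the sulfate transporter gene SLC26A2 and the noncoding RNA gene DUBR, with Pearson r of 0.989, 0.986 and 0.986. For AQP3 they were SNX21, TRIM29 and CCDC142 (0.964, 0.961 and 0.961), and for LRRC8C PALM2AKAP2, PVR and the transcription factor gene ZEB1 (0.983, 0.976 and 0.975). For LRRC8D they were SLC26A11, APOOL and RPS6KL1, at a lower r (0.906, 0.890 and 0.890). Without repeat 1 at pH 7.4 these r ranged over 0.839 to 0.988. The points share libraries and the 3 media, so r describes likeness of pattern across these samples.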

How the data were processed

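The authors deposited 1 table of raw counts per gene for 12 poly(A) libraries. The submitters' processing notes name STAR, featureCounts and the builds GRCh38.p13 and hg38. For versions, strand use and multi-mapping reads: not given in the sources used here. Per the labels' protocols, the kit was stranded. At most 0.424% of a library's counts lay in genes with no symbol.

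Groups follow the pH in the labels, 4 libraries each. Counts were fitted with edgeR 4.0.16 in R 4.3.3 on the whole table (TMM scaling, filterByExpr, robust quasi-likelihood fit, 1 term per medium over all 12 libraries, 9 residual degrees of freedom), leaving 17544 genes with a common biological coefficient of variation of 0.198. P-values were adjusted by Benjamini-Hochberg over all tested genes, with a threshold of 0.05. The script was tested on simulated data. Ratios of LRRC8 partners to LRRC8A, with 0.5 added to each count, were tested by exact two-sided permutation (Python 3.11.15, scipy 1.17.1).

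Alternatives were the repeat number as a block, RLE factors, library size alone, DESeq2 1.42.0, other filters on low counts, only the compared groups, each library left out, the 2 libraries with the fewest genes left out, and repeats 1 and 2 or 3 and 4 alone. Same-numbered libraries deviated together from their group means in all 4 pairs of pH 6.4 with pH 7.4 (r 0.113 to 0.262). They did so in all 4 pairs of pH 6.4 with pH 6.9 (0.264 to 0.470), and in 3 of 4 pairs of pH 6.9 with pH 7.4 (0.0798 to 0.352). Of the 12 pairs 10 correlated best with their own number. The exceptions were repeat 1 at pH 6.4 and repeat 1 at pH 6.9, each closer to another number at pH 7.4 (r 0.214 and 0.247). No 2 libraries were copies, in 66 pairs. All 9 members and the called genes with the smallest p of each list (up to 4) were named. The members and lists were chosen with earlier results of these data known. Gene positions are from GENCODE release 29.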

Additional observations from a re-analysis of the deposited data

Results flagged for a closer look

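No library stood apart from the other 3 of its medium by Dixon's test in any of 27 groups, 9 genes in 3 media.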

How the results depend on the processing

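Over 22 settings, 594 values of the 9 genes were recomputed, of which 529 kept direction and call, 18 lost a call, 11 gained one and 36 turned direction, 0 of these for a value called in the report. At pH 6.4 against pH 7.4, the 4 calls became 1 within repeats 3 and 4, where 1528 genes were called in all, and were 4 to 5 when single libraries were left out. There AQP5 ranged over -3.42 to -2.58, AQP3 over -1.53 to -1.26, AQP1 over -0.98 to -0.70 and LRRC8C over 0.55 to 0.77. At pH 6.9 against pH 7.4, where no member was called, DESeq2 called 1 (559 genes in all, against 127 by edgeR), single libraries left out gave 0 to 0, and the repeat number as a block gave 1, AQP3 at -0.84 with an adjusted p of 0.00699 (947 genes). Between these media 3 of 4 same-numbered pairs correlated best with their own number, and the fourth had r 0.0798. At pH 6.4 against pH 6.9, the 3 calls became 5 with the repeat block (5456 genes, against 2988), which pairs these media, 0 within repeats 3 and 4 (0 genes in all) and 1 to 4 when single libraries were left out. The count was 1 without repeat 1 at pH 6.9, without repeat 2 at pH 6.4 and without repeat 4 at pH 6.4, where AQP1 and LRRC8C did not pass. LRRC8C was also lost without repeat 2 or 3 at pH 7.4 and without repeat 2 or 3 at pH 6.9, and without the 2 libraries with the fewest genes (adjusted p = 0.0514), with adjusted p-values of 0.00779 to 0.139 over the libraries left out. The midpoint count was 0 to 1, with 1109 genes in all without repeat 3 at pH 6.4, and 0 with the repeat block. At pH 6.4 against pH 7.4 the block left the 4 calls and gave 7290 genes in all, against 5321. No LRRC8 ratio passed with a pseudocount of 1. None passed with sign flips within repeat numbers as a block (lowest adjusted p 0.6) or with a library left out (0 to 0). These say nothing of stability, since no ratio could have passed there after adjustment over 12 tests. The smallest exact p is 0.125 for 4 pairs, 0.0571 for 3 against 4 libraries and 0.0286 for 4 against 4.

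Directions turned in values that were not called. With library size alone, AQP11 and LRRC8A at pH 6.4 minus pH 7.4 were -0.0135 and -0.0324. With the repeat block, AQP11 at pH 6.9 minus pH 7.4 was 0.000713. Within repeats 1 and 2, AQP11 and LRRC8D at pH 6.9 minus pH 7.4 were 0.63 and 0.11. Within repeats 3 and 4, AQP11 and LRRC8B at pH 6.4 minus pH 7.4 were -0.46 and 0.0205, LRRC8B at pH 6.4 minus pH 6.9 was 0.13, and AQP1, LRRC8B, LRRC8C and LRRC8E at pH 6.9 minus pH 7.4 were 0.11, -0.11, -0.0127 and -0.0788. With single libraries left out, or both repeat 1 at pH 7.4 and repeat 2 at pH 6.9, AQP11 ranged over -0.24 to 0.31 and LRRC8B over -0.15 to 0.0644 at pH 6.4 minus pH 7.4. At pH 6.9 minus pH 7.4, AQP1 ranged over -0.14 to 0.0902, AQP11 over -0.42 to 0.17, LRRC8B over -0.10 to 0.10 and LRRC8E over -0.10 to 0.10, and LRRC8B ranged over -0.16 to 0.0469 at pH 6.4 minus pH 6.9. The causes were not tested. AQP5 at pH 6.4 and AQP11 rest on as few as 14 counts in a library, which limits their precision.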

Other observations

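AQP5-AS1, the antisense gene at AQP5, had 0, 55, 25 and 67 counts in repeats 1 to 4 at pH 7.4, 50, 36, 34 and 21 counts at pH 6.9, and 12, 5, 16 and 4 counts at pH 6.4. Repeat 1 at pH 7.4, which stood apart from the other libraries, was the lowest for AQP5-AS1, with 0 counts, and had 439 counts of AQP5. At pH 6.4 repeat 3 was the highest for AQP5-AS1, AQP5 and AQP6.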
